A study of Mus musculus with 18 samples.

Results

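The genes described here encode integrin chains and proteins of focal adhesions, the sites at which a cell is anchored to the extracellular matrix. The list was drawn up by name and role and held 39 genes: 10 integrin alpha chains, 3 beta chains, 11 LIM proteins, 11 actin linkers and actin regulators, and 4 kinases, pseudokinases and integrin adaptors. Each gene was read from the probe set that carried its symbol alone, or from the brightest of these by mean over all 18 arrays. In all, 36 of the 39 were measured, among 22180 genes in the table. Ptk2 and Ilk were not analysed here, nor was Lims2, whose probe set also carries the symbol Gpr17.

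The cells were C2C12, a mouse line of muscle precursors that differentiate and fuse into myotubes in low serum. Cells in 20% fetal bovine serum were moved to 2% horse serum, infected 36 h later with a lentivirus that carries a short hairpin RNA (shRNA), and harvested as myotubes after another 48 h, so every group, controls included, was differentiated and infected. The 3 groups of 6 one-colour arrays carried an shRNA against Nup210, which encodes a glycoprotein of the nuclear pore membrane, an shRNA against Mef2c, which encodes a muscle transcription factor, or a scramble control shRNA. The number of hairpins used per gene is not given in the sources used here, and the labels do not say whether the 6 samples of a group were grown separately, so the p-values describe the spread among these samples alone, and that spread may be technical.

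Integrins are receptors of the cell surface, each built of an alpha and a beta chain. The alpha chain largely sets which matrix protein is bound (laminin, collagen, fibronectin), and most of the alpha chains measured here pair with beta1, encoded by Itgb1. Inside the cell, talin and kindlin bind the tail of the beta chain and switch the receptor on, and vinculin, alpha-actinin, filamin and tensin tie it to actin. LIM proteins such as zyxin, paxillin and the FHL family gather at these sites, often under tension, and several also enter the nucleus. In muscle the same machinery holds the fibre to its basement membrane at costameres and myotendinous junctions, and alpha7beta1 is the main laminin receptor of mature fibres. The question here is how the transcripts of this machinery differ with each shRNA label, and whether the 2 labels differ from each other.

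Several of these genes are textbook targets of serum response factor, which binds the CArG box, and many muscle genes carry a MEF2 site, so the promoters of the members were searched for both. RefSeq promoter sequence (GRCm38.p6), 250 bases immediately before each start site and read along the gene, was at hand for 30 of the 39 members, with 38 start sites. Both strands were searched for the CArG box and the MEF2 site, each by its name because its letters vary, and for the shorter motifs CATTCC (MCAT) and TGANTCA (AP-1 with any middle base). The CArG box was found in 5 of 38 windows (13.2%) from 4 genes, Vcl, Fermt2, Fhl1 and Fhl2, against 1.47% of 32851 windows of the same length from all genes. The MEF2 site was found in 2 of 38 (5.26%, Fhl2 and Lims1), against 2.92% of all windows. The MCAT motif was found in 5 (13.2%; Actn4, Flna, Itgb1, Lpp and Vcl), against 12.6%, and the letters TGANTCA in 2 (5.26%, Actn4 and Zyx), against 6.75%. These letters allow any middle base, where the AP-1 consensus has C or G. Read along the gene, the Zyx match has G there and the Actn4 match has A. No printed window held motifs that overlapped. A match is a description of letters and not a mapped binding site, and a window without one says only that these letters are not in it.

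The 5 windows with a CArG box are shown, since this is the motif whose share differed most from that of all windows. Of the 4 genes that carry them, Vcl and Fhl2 were called lower with Nup210 shRNA and Fhl1 and Fermt2 with Mef2c shRNA. None was called in the other comparison with control. Of all measured members, 38.9% and 36.1% were called lower in these comparisons, and a link of the motif to the calls was not tested. Capitals mark the CArG box and, in the second Fhl2 window, also the MEF2 site that follows it.
Vcl (chr14:20929148-20929397, plus strand): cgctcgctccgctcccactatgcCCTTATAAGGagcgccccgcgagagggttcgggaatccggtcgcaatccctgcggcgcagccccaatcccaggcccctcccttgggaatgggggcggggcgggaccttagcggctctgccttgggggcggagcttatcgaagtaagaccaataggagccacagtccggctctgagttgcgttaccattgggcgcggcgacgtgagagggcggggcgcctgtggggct
Fermt2 (chr14:45530066-45530315, minus strand): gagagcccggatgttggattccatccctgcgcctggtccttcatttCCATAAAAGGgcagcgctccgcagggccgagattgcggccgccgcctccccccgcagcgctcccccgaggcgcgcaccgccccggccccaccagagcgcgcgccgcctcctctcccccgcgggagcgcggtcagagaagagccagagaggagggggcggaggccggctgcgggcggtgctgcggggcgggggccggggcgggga
Fhl1 (chrX:56779433-56779682, plus strand): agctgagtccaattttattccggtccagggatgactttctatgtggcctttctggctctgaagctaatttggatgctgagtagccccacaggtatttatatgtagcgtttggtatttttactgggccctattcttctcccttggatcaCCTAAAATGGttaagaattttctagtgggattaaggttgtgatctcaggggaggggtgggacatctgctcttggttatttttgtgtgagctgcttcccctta
Fhl2 (chr1:43163962-43164211, minus strand): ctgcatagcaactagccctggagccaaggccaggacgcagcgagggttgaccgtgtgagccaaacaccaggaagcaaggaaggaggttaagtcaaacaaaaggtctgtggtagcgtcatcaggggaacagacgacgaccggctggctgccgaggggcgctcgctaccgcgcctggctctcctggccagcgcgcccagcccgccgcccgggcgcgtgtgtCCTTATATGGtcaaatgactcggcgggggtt
Fhl2 (chr1:43196762-43197011, minus strand): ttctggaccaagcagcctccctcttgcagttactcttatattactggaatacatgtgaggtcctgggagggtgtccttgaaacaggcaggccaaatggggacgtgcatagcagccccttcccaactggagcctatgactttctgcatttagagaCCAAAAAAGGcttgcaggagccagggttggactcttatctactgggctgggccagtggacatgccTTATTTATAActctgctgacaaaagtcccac
The first base of the CArG box lies 227 bases before the start in Vcl, 204 in Fermt2, 102 in Fhl1, and 31 and 96 in the windows of Fhl2, the second of which has its MEF2 site at 31 bases. Fhl1 has another start site whose window holds none of the 4 motifs.

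Values are RMA log2 expression as deposited, so a difference of 1 is a 2-fold change. The targeted gene was checked first. Mef2c read 7.51, 7.97 and 8.08 (lowest, median and highest array) with Mef2c shRNA and 10.10, 10.42 and 10.54 in controls, a mean level of 17.9% of control, with no overlap (two-sided exact permutation test over 924 splits, p = 0.00216, the smallest it can give, adjusted p = 0.00325). Its second probe set stood at 27.6% of control. Nup210 read 5.54, 5.63 and 5.79 with Nup210 shRNA and 5.57, 5.79 and 5.81 in controls, close to the background guide of 5.47, at 93.1% of control (exact p = 0.0801), so this probe set did not show the knockdown and the Nup210 group goes by its label. The guide is the level below which 95% of 1390 olfactory and vomeronasal receptor genes fall, and 35 of 36 members exceeded it, all but Itga8. Array medians ran from 5.48 to 5.57, arrays of a group correlated at 0.991 to 0.995 across genes, and the number of arrays limits the precision. The median within-group SD was 0.083 for the members and 0.099 for all genes above the guide. No scan date or batch is given in the sources used here.

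With Nup210 shRNA, 14 of 36 members fell (38.9%) and 3 rose (8.33%), where 5.11% of all 22180 genes fell and 3.05% rose. With Mef2c shRNA, 13 fell (36.1%) and 0 rose, where 6.42% of all genes fell and 4.34% rose. The words rose and fell, and called, are used where p after Benjamini-Hochberg adjustment was under 0.05 in a limma fit of all 18 arrays and all genes. The median difference of the members was -0.11 with Nup210 shRNA and -0.15 with Mef2c shRNA, beside 0.015 and 0.020 for all genes. Of the 36, 27 were below the control mean in the first comparison and 27 in the second. These 2 comparisons share their 6 control arrays. Between the shRNA groups the picture was mixed. There 6 members were higher with Nup210 shRNA than with Mef2c shRNA (16.7%, where 7.1% of all genes were higher). Another 5 were lower (13.9%, where 6.93% were lower), and the median was 0.040. All genes include dim ones, while 35 of 36 members exceeded the guide, as 13010 genes did. In a fit of those genes, 18 members fell and 3 rose with Nup210 shRNA, where 11% of genes fell and 7.16% rose. With Mef2c shRNA 19 fell and 0 rose, where 14% fell and 9.54% rose. Between the shRNA groups 8 were higher and 5 lower, where 14.2% of genes were higher and 14% lower. The 13.9% lower and 16.7% higher between the shRNA groups, and the 8.33% that rose with Nup210 shRNA, were near these shares. Those 3 percentages of members come from the fit of all genes and not from this one. The groups did not overlap for 14 members in the first comparison, 11 in the second and 7 in the third, where the shares over all genes were 5.63%, 7.74% and 8.62%. In limma at an unadjusted p under 0.05, 3 of the 36 were higher and 21 lower with Nup210 shRNA, where 9.91% of all genes were higher and 10.3% lower. At the same threshold 1 (Tln2) was higher and 22 lower with Mef2c shRNA, where 11.6% of all genes were higher and 11.4% lower. The 14 members called in none of the 3 comparisons were Itga1, Itga4, Itga7, Itga8, Itgb1, Itgb3, Lpp, Pxn, Lims1, Tln1, Parva, Parvb, Vasp and Itgb1bp2.

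**Figure D1:**
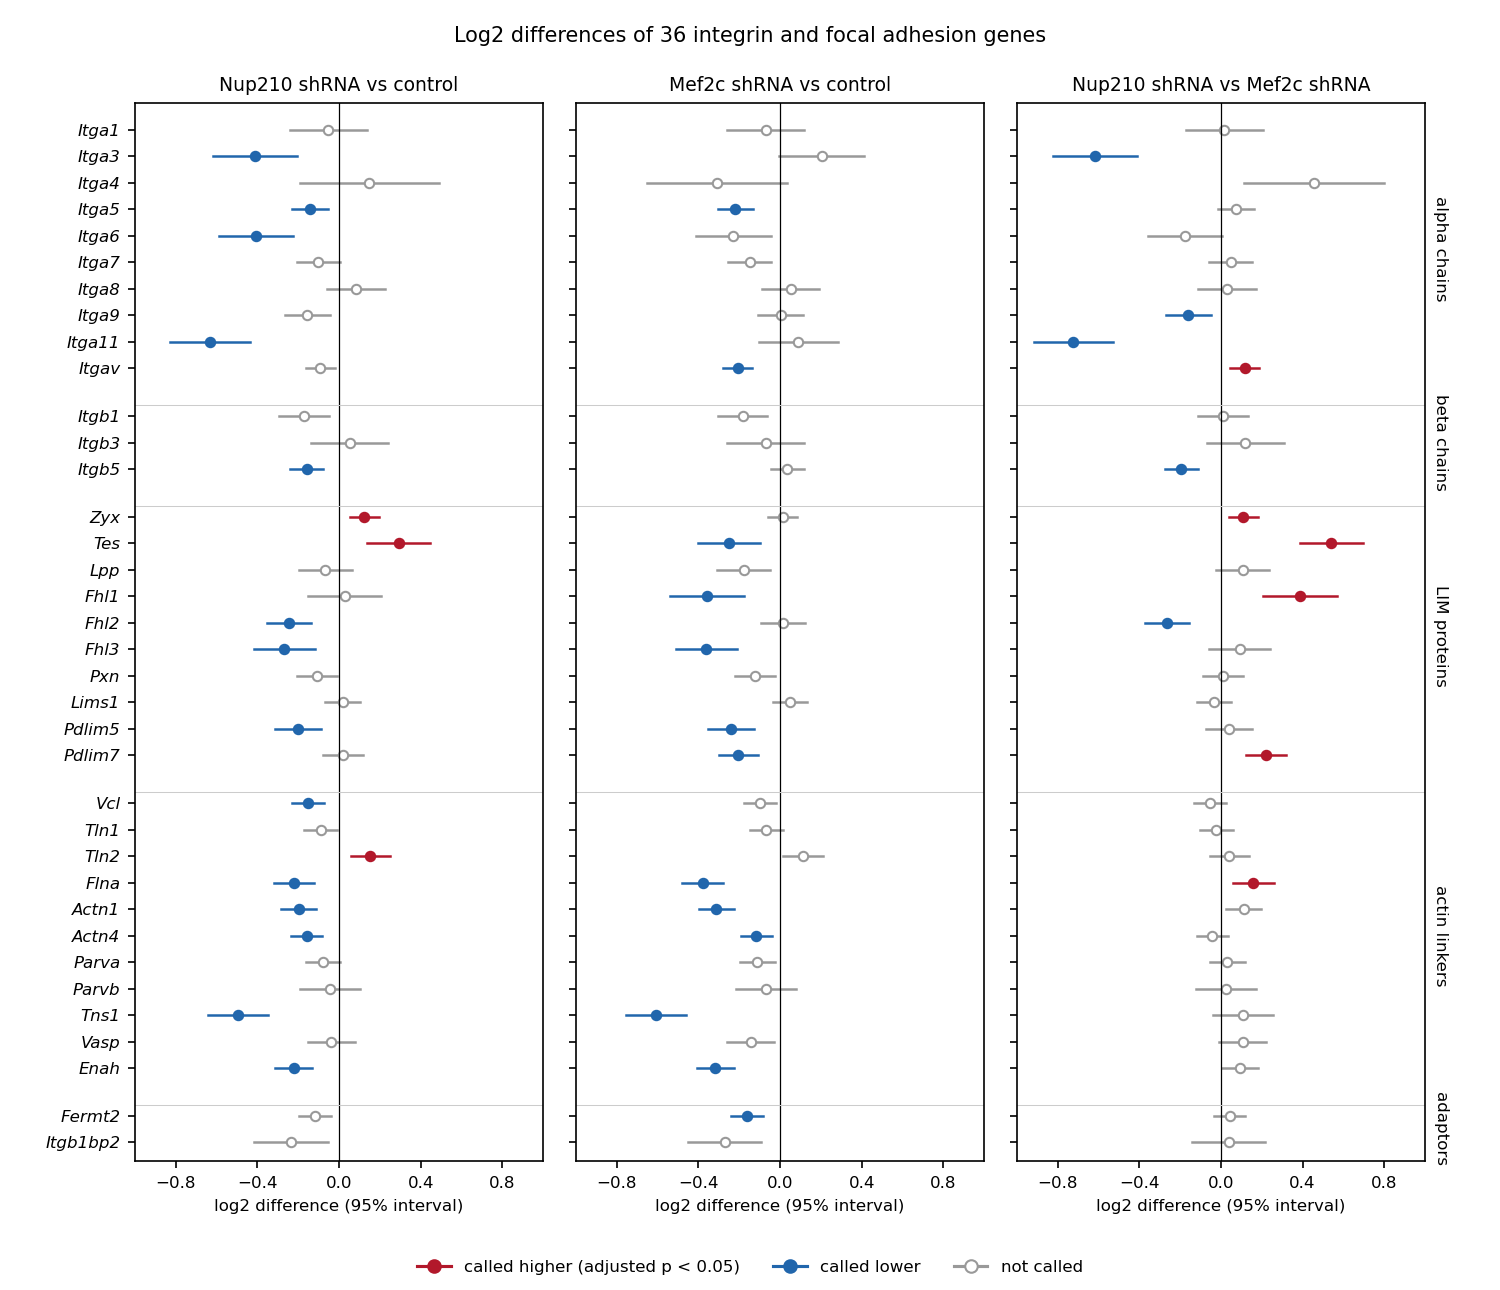
Log2 difference of each of the 36 measured members (rows, by role) in the 3 comparisons (panels), as points with 95% intervals. Filled points passed an adjusted p under 0.05. Itga11 (-0.63 with Nup210 shRNA) and Tns1 (-0.61 with Mef2c shRNA) lie farthest below 0 against control.

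With Nup210 shRNA against control, 2 fits that left out several arrays called fewer members and fewer genes in all. Array quality weights were lowest for Nup210 shRNA arrays 4, 2 and 5 (0.621, 0.724 and 0.744), and without these 3, a fit added after seeing the data, 4 members fell (Itga3, Itga11, Tns1 and Enah) and 0 rose, where 1.85% of all genes fell and 0.69% rose. The 13 members that lost their call all kept their direction, at 68.3% to 118% of their difference over all arrays: Fhl2 was -0.23, Actn4 -0.15, Itga6 -0.38 and Tes 0.35. In the same fit, between the shRNA groups the calls of Itgav, Pdlim7, Zyx and Itga9 were lost. A second fit, also chosen once the values were known, left out control arrays 4 and 6: there 9 fell and 0 rose with Nup210 shRNA, without Fhl3, Itga5, Itga6, Pdlim5 and Vcl, where 3.26% of all genes fell and 1.71% rose. With Mef2c shRNA 9 fell, without Actn4, Fhl1, Pdlim5 and Tes, where 3.98% of all genes fell. The 8 and 4 calls lost in this fit also kept their direction, at 71.6% to 93.3% and 76.2% to 108% of their differences over all arrays. With each array centred on its median, 13 members fell and 1 rose with Nup210 shRNA, the calls of Itga5, Zyx and Tln2 being lost. In that fit 5.31% of all genes fell and 1.78% rose.

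Among the integrin alpha chains, 4 of 10 fell with Nup210 shRNA and 0 rose, and 2 of 10 fell with Mef2c shRNA and 0 rose. Of all genes 5.11% and 6.42% fell in these comparisons, and 11% and 14% in the fit of genes above the guide. The 2 of 10 (20%) was not far from the 14%. No test compared the genes of a role with all genes. Itga11, the collagen-binding alpha11 chain, showed the largest difference from control of all members. Its log2 values were 6.96, 7.12 and 7.38 on Nup210 shRNA arrays, 7.48, 7.88 and 8.11 on Mef2c shRNA arrays, and 7.64, 7.75 and 7.92 on control arrays. No Nup210 shRNA array reached the lowest array of either other group, and the Mef2c shRNA arrays spread over the whole control range and beyond it. Itga11 fell by 0.63 on the log2 scale (SE 0.092, adjusted p = 0.000248) with Nup210 shRNA, to 64.5% of control, and its difference with Mef2c shRNA was 0.09 (95% interval -0.10 to 0.28, adjusted p = 0.63). Directly compared, it was lower with Nup210 shRNA than with Mef2c shRNA, -0.72 (SE 0.092, adjusted p = 2.47e-05). The other collagen-binding chain measured, Itga1 (alpha1), was dim, with medians of 5.56, 5.47 and 5.59 on Nup210 shRNA, Mef2c shRNA and control arrays, and was called in no comparison.

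The chains of laminin receptors, Itga3, Itga6 and Itga7, differed among themselves. Itga3 (alpha3) read 7.76, 7.93 and 8.30 on Nup210 shRNA arrays, 8.40, 8.52 and 8.87 on Mef2c shRNA arrays, and 8.24, 8.30 and 8.60 on control arrays. The Nup210 shRNA arrays lay below all Mef2c shRNA arrays and touched the control range with 1 array, while every Mef2c shRNA array was above 4 of 6 control arrays. Itga3 fell by 0.41 on the log2 scale (SE 0.099, adjusted p = 0.0128) with Nup210 shRNA and differed by 0.20 (95% interval -0.0025 to 0.41, adjusted p = 0.225) with Mef2c shRNA, and the direct difference was -0.62 (SE 0.099, adjusted p = 0.000221). Itga6 (alpha6), a chain of myoblasts, read 7.81, 8.10 and 8.19 on Nup210 shRNA arrays, 7.96, 8.25 and 8.50 on Mef2c shRNA arrays, and 8.28, 8.44 and 8.59 on control arrays. It was lower on every Nup210 shRNA array than on any control array, with the Mef2c shRNA arrays between and overlapping both. It fell by 0.41 on the log2 scale (SE 0.087, adjusted p = 0.00561) with Nup210 shRNA, and its difference with Mef2c shRNA was -0.23 (95% interval -0.41 to -0.046, adjusted p = 0.107). Without Mef2c shRNA array 6 that second difference was -0.28 and was called (adjusted p = 0.0363). Itga7 (alpha7), the chain of mature muscle, had medians of 11.52, 11.44 and 11.60 on Nup210 shRNA, Mef2c shRNA and control arrays. It was not called: -0.10 (95% interval -0.21 to 0.0041, adjusted p = 0.27) with Nup210 shRNA and -0.15 (95% interval -0.25 to -0.043, adjusted p = 0.0677) with Mef2c shRNA.

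Itga5 and Itgav encode alpha5 and alphav, which bind the RGD motif of fibronectin and vitronectin. Itga5 read 9.59, 9.70 and 9.76 on Nup210 shRNA arrays, 9.57, 9.60 and 9.68 on Mef2c shRNA arrays, and 9.77, 9.82 and 9.90 on control arrays. Both shRNA groups lay wholly below the control arrays. Itga5 fell by 0.14 on the log2 scale (SE 0.042, adjusted p = 0.039) with Nup210 shRNA and by 0.22 on the log2 scale (SE 0.042, adjusted p = 0.00183) with Mef2c shRNA. The first of these calls was lost without any 1 of 7 arrays (Nup210 shRNA arrays 3, 4 and 5, control arrays 2, 4, 5 and 6; adjusted p 0.0583 to 0.0963). Itgav had some of the tightest groups of the list and read 10.29, 10.34 and 10.38 on Nup210 shRNA arrays, 10.14, 10.22 and 10.32 on Mef2c shRNA arrays, and 10.41, 10.43 and 10.45 on control arrays. All arrays of both shRNA groups were below all control arrays, yet only the Mef2c shRNA difference passed the test: -0.091 (SE 0.034, adjusted p = 0.121) with Nup210 shRNA and -0.21 (SE 0.034, adjusted p = 0.000485) with Mef2c shRNA. Itgav was higher with Nup210 shRNA than with Mef2c shRNA by 0.12 on the log2 scale (SE 0.034, adjusted p = 0.028), a call lost without any 1 of 6 arrays (Nup210 shRNA arrays 1, 2 and 5, Mef2c shRNA arrays 3, 4 and 6). A second probe set of Itgav, dim at a mean of 4.01, showed neither difference.

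Itga9 and Itga4 encode a related pair of chains, alpha9 and alpha4, that bind VCAM-1 and fibronectin variants. Itga9, a dim gene, read 5.67, 5.77 and 5.88 on Nup210 shRNA arrays, 5.82, 5.90 and 6.10 on Mef2c shRNA arrays, and 5.86, 5.92 and 6.07 on control arrays. It was called only between the shRNA groups, -0.16 (SE 0.053, adjusted p = 0.0492), and that call was lost without any 1 of 15 arrays, all but Nup210 shRNA array 3, Mef2c shRNA array 4 and control array 2. Itga4 had the widest within-group spread of the list, with 7.08, 7.30 and 7.67 on Nup210 shRNA arrays, 6.53, 6.74 and 7.54 on Mef2c shRNA arrays and 6.87, 7.20 and 7.57 on control arrays. Its direct difference of 0.46 (95% interval 0.12 to 0.80, adjusted p = 0.0731) missed the threshold. It passed in 2 of 8 alternative limma fits (adjusted p 0.00118 to 0.106). With 1 array left out it passed in 1 of 18 fits, without Mef2c shRNA array 3 (0.59, adjusted p = 0.00841).

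Of the beta chains, Itgb5 was called. The beta5 chain pairs with alphav, and Itgb5 read 10.52, 10.57 and 10.67 on Nup210 shRNA arrays, 10.73, 10.79 and 10.82 on Mef2c shRNA arrays, and 10.68, 10.73 and 10.85 on control arrays. All Nup210 shRNA arrays were below all arrays of both other groups. Itgb5 fell by 0.16 on the log2 scale (SE 0.038, adjusted p = 0.0135) with Nup210 shRNA, differed by 0.036 (95% interval -0.044 to 0.12, adjusted p = 0.644) with Mef2c shRNA, and differed by -0.19 (SE 0.038, adjusted p = 0.00153) between the shRNA groups. Without Nup210 shRNA arrays 2, 4 and 5 the first of these was -0.12 and was not called (adjusted p = 0.230). Itgb1, the common beta chain, was bright, with medians of 11.54, 11.56 and 11.75 on Nup210 shRNA, Mef2c shRNA and control arrays. Its differences from control, -0.17 (95% interval -0.30 to -0.051, adjusted p = 0.0788) with Nup210 shRNA and -0.18 (95% interval -0.31 to -0.061, adjusted p = 0.0504) with Mef2c shRNA, did not pass the test. The first passed in 3 of 8 alternative limma fits (adjusted p 0.00601 to 0.12) and the second in 7 of 8 (adjusted p 0.00332 to 0.0524). With 1 array left out, the first passed in 2 of 18 fits and the second in 4. Itgb3, the beta3 chain, differed by 0.051 (95% interval -0.14 to 0.24, adjusted p = 0.824) with Nup210 shRNA and by -0.069 (95% interval -0.26 to 0.12, adjusted p = 0.72) with Mef2c shRNA.

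**Figure D2:**
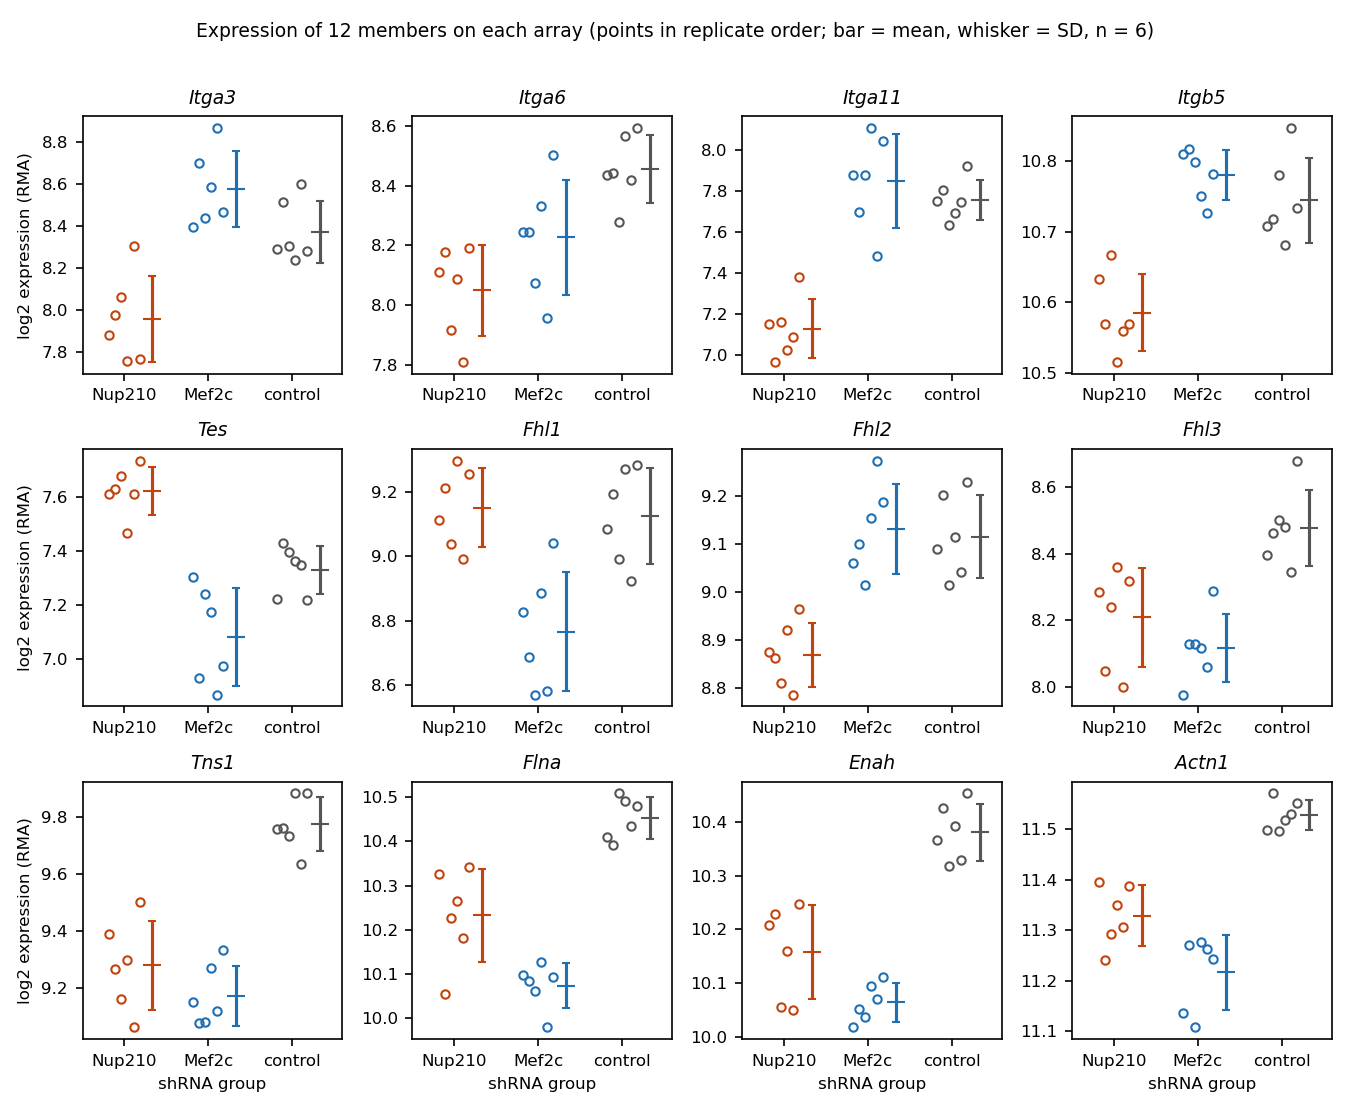
Log2 expression (RMA, y axis, own scale per panel) of 12 members on each array, with points in replicate order and mean and SD (n = 6) beside them, for Nup210 shRNA, Mef2c shRNA and control groups. Itga11, Itgb5 and Fhl2 are lowest in the Nup210 shRNA group, Fhl1 is lowest in the Mef2c shRNA group, and Tns1, Flna, Enah and Actn1 are below control in both.

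Among the LIM proteins, 3 of 10 fell and 2 rose with Nup210 shRNA, and 5 of 10 fell and 0 rose with Mef2c shRNA. In the fit of genes above the guide, 11% of genes fell and 7.16% rose with Nup210 shRNA. With Mef2c shRNA 14% of those genes fell and 9.54% rose. The FHL family are scaffold proteins built of repeated LIM domains that are abundant in striated muscle. Of these genes Fhl1 and Fhl2 divided by label, while Fhl3 fell with both. Fhl1, mutated in human myopathies, read 8.99, 9.16 and 9.30 on Nup210 shRNA arrays, 8.57, 8.76 and 9.04 on Mef2c shRNA arrays, and 8.92, 9.14 and 9.28 on control arrays. The Nup210 shRNA and control arrays covered much the same range, and 5 of 6 Mef2c shRNA arrays were below both. Fhl1 fell by 0.36 on the log2 scale (SE 0.086, adjusted p = 0.00985) with Mef2c shRNA, was 0.027 (95% interval -0.15 to 0.21, adjusted p = 0.913) with Nup210 shRNA, and was higher with Nup210 shRNA than with Mef2c shRNA by 0.39 on the log2 scale (SE 0.086, adjusted p = 0.00423). Without control arrays 4 and 6 the Mef2c shRNA difference was -0.28 and was not called (adjusted p = 0.0869).

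Fhl2, a co-regulator of transcription and adaptor of integrin tails, showed the reverse layout, and read 8.78, 8.87 and 8.96 on Nup210 shRNA arrays, 9.01, 9.13 and 9.27 on Mef2c shRNA arrays, and 9.01, 9.10 and 9.23 on control arrays. Here every Nup210 shRNA array was below every array of the other groups, and the Mef2c shRNA and control arrays overlapped throughout. Fhl2 fell by 0.25 on the log2 scale (SE 0.052, adjusted p = 0.00486) with Nup210 shRNA, was 0.017 (95% interval -0.092 to 0.12, adjusted p = 0.899) with Mef2c shRNA, and differed by -0.26 (SE 0.052, adjusted p = 0.00147) between the shRNA groups. Fhl3, the third member, read 8.001, 8.26 and 8.36 on Nup210 shRNA arrays, 7.98, 8.12 and 8.29 on Mef2c shRNA arrays, and 8.35, 8.47 and 8.68 on control arrays. All Mef2c shRNA arrays, and 5 of 6 Nup210 shRNA arrays, were below the lowest control array. Fhl3 fell by 0.27 on the log2 scale (SE 0.071, adjusted p = 0.0233) with Nup210 shRNA, a call lost on leaving out Nup210 shRNA array 2, its array 5 or control array 6, and by 0.36 on the log2 scale (SE 0.071, adjusted p = 0.00222) with Mef2c shRNA.

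Tes encodes testin, a partner of zyxin in adhesions, and was the member called in opposite directions against control. It read 7.47, 7.62 and 7.74 on Nup210 shRNA arrays, 6.87, 7.08 and 7.31 on Mef2c shRNA arrays, and 7.22, 7.36 and 7.43 on control arrays. All Nup210 shRNA arrays were above all control arrays, and 4 of 6 Mef2c shRNA arrays were below them. Tes rose by 0.29 on the log2 scale (SE 0.073, adjusted p = 0.0165) with Nup210 shRNA and fell by 0.25 on the log2 scale (SE 0.073, adjusted p = 0.0334) with Mef2c shRNA, and the direct difference was 0.54 (SE 0.073, adjusted p = 4.24e-05). The fall was lost without any 1 of 7 arrays (Mef2c shRNA arrays 2, 5 and 6, control arrays 2, 3, 4 and 5), and the rise was lost when both probe sets of Tes were averaged (adjusted p = 0.212). The dimmer probe set, at a mean of 6.01, differed by 0.0034 with Nup210 shRNA and by -0.30 with Mef2c shRNA (adjusted p = 0.0261 over all probe sets). The direct difference passed in both probe sets, 0.54 and 0.30.

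Zyx encodes zyxin, which recruits actin-polymerising proteins to adhesions under tension, and it read 10.46, 10.49 and 10.54 on Nup210 shRNA arrays, 10.31, 10.40 and 10.45 on Mef2c shRNA arrays, and 10.35, 10.37 and 10.39 on control arrays. The Nup210 shRNA arrays were above all others, by a small step. Zyx rose by 0.12 on the log2 scale (SE 0.034, adjusted p = 0.0289) with Nup210 shRNA and was higher than with Mef2c shRNA by 0.11 on the log2 scale (SE 0.034, adjusted p = 0.0346). The first call was lost without any 1 of 7 arrays (Nup210 shRNA arrays 2, 4 and 5, control arrays 1, 3, 4 and 6), and the second likewise (Nup210 shRNA arrays 2, 4 and 5, Mef2c shRNA arrays 1, 2, 3 and 6). Its relative Lpp was not called, at -0.069 with Nup210 shRNA and -0.18 with Mef2c shRNA.

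Pdlim5 and Pdlim7 encode Enigma-type proteins of the Z-disc, which carry a PDZ and several LIM domains. Pdlim5 read 8.91, 9.01 and 9.11 on Nup210 shRNA arrays, 8.86, 8.99 and 9.09 on Mef2c shRNA arrays, and 9.08, 9.22 and 9.34 on control arrays. Both shRNA groups touched the lower end of the control range with their highest arrays. It fell by 0.20 on the log2 scale (SE 0.054, adjusted p = 0.0256) with Nup210 shRNA, lost without any 1 of 5 arrays (Nup210 shRNA arrays 4 and 5, control arrays 1, 4 and 6), and by 0.24 on the log2 scale (SE 0.054, adjusted p = 0.0061) with Mef2c shRNA. Pdlim7 read 9.32, 9.42 and 9.47 on Nup210 shRNA arrays, 9.05, 9.20 and 9.26 on Mef2c shRNA arrays, and 9.27, 9.41 and 9.47 on control arrays. The Mef2c shRNA arrays lay below all others, and the Nup210 shRNA arrays overlapped the control range throughout. Pdlim7 fell by 0.20 on the log2 scale (SE 0.046, adjusted p = 0.00674) with Mef2c shRNA, was 0.017 (95% interval -0.08 to 0.11, adjusted p = 0.892) with Nup210 shRNA, and was higher with Nup210 shRNA than with Mef2c shRNA by 0.22 on the log2 scale (SE 0.046, adjusted p = 0.00254). Paxillin (Pxn), a central scaffold, and Lims1 (PINCH1), a partner of integrin-linked kinase, were called in no comparison.

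The actin linkers had most of their members below control. With Nup210 shRNA 6 of 11 fell and 1 rose, and with Mef2c shRNA 5 of 11 fell and 0 rose. Between the shRNA groups 1 was higher and 0 lower. In the fit of genes above the guide, 11% of genes fell with Nup210 shRNA and 14% with Mef2c shRNA. There 7.16% rose with Nup210 shRNA, and 14.2% were higher between the shRNA groups. The 1 of 11 (9.09%) that rose, and the 1 of 11 higher between the groups, were near or below these last shares. In each comparison with control 10 of 11 differences were negative. Tns1, which encodes tensin 1, a protein that links integrin tails to actin in fibrillar adhesions, read 9.06, 9.28 and 9.50 on Nup210 shRNA arrays, 9.08, 9.13 and 9.33 on Mef2c shRNA arrays, and 9.64, 9.76 and 9.88 on control arrays. Both shRNA groups stood clear below the controls and overlapped each other. Tns1 fell by 0.50 on the log2 scale (SE 0.07, adjusted p = 0.000179) with Nup210 shRNA, to 70.9% of control, and by 0.61 on the log2 scale (SE 0.07, adjusted p = 1.52e-05) with Mef2c shRNA, to 65.7% of control. Their direct difference was 0.11 (95% interval -0.038 to 0.26, adjusted p = 0.391).

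Flna encodes filamin A, which crosslinks actin and binds integrin tails, and read 10.05, 10.25 and 10.34 on Nup210 shRNA arrays, 9.98, 10.09 and 10.13 on Mef2c shRNA arrays, and 10.39, 10.46 and 10.51 on control arrays. The controls were above both shRNA groups, and the Mef2c shRNA arrays overlapped only the lower end of the Nup210 shRNA arrays. Flna fell by 0.22 on the log2 scale (SE 0.047, adjusted p = 0.00586) with Nup210 shRNA and by 0.38 on the log2 scale (SE 0.047, adjusted p = 3.34e-05) with Mef2c shRNA. It was higher with Nup210 shRNA than with Mef2c shRNA by 0.16 on the log2 scale (SE 0.047, adjusted p = 0.0297), with 5 of 6 Nup210 shRNA arrays above the Mef2c shRNA mean, a call lost without any 1 of 5 arrays (Nup210 shRNA arrays 1, 4 and 6, Mef2c shRNA arrays 3 and 5).

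Actn1 and Actn4 encode the non-muscle alpha-actinins, crosslinkers of actin that bind integrin tails and vinculin. Actn1 read 11.24, 11.33 and 11.40 on Nup210 shRNA arrays, 11.11, 11.25 and 11.28 on Mef2c shRNA arrays, and 11.50, 11.52 and 11.57 on control arrays. The 3 groups were almost stepwise, with controls on top and a small overlap between the shRNA groups. Actn1 fell by 0.20 on the log2 scale (SE 0.041, adjusted p = 0.00432) with Nup210 shRNA and by 0.31 on the log2 scale (SE 0.041, adjusted p = 5.6e-05) with Mef2c shRNA. Actn4 read 10.78, 10.84 and 10.88 on Nup210 shRNA arrays, 10.77, 10.89 and 10.95 on Mef2c shRNA arrays, and 10.97, 11.004 and 11.03 on control arrays. Both shRNA groups were below all controls, the Mef2c shRNA group with a wider spread. Actn4 fell by 0.16 on the log2 scale (SE 0.036, adjusted p = 0.00904) with Nup210 shRNA and by 0.12 on the log2 scale (SE 0.036, adjusted p = 0.0442) with Mef2c shRNA, and the second call was lost without any 1 of 13 arrays, all but Nup210 shRNA arrays 3 and 4, Mef2c shRNA arrays 4 and 6 and control array 5 (adjusted p 0.0502 to 0.1).

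Enah encodes Mena, which speeds actin filament growth at adhesions, and read 10.05, 10.18 and 10.25 on Nup210 shRNA arrays, 10.02, 10.06 and 10.11 on Mef2c shRNA arrays, and 10.32, 10.38 and 10.45 on control arrays. Neither shRNA group overlapped the controls. Enah fell by 0.22 on the log2 scale (SE 0.043, adjusted p = 0.00252) with Nup210 shRNA and by 0.32 on the log2 scale (SE 0.043, adjusted p = 7.09e-05) with Mef2c shRNA. Its relative Vasp was not called, at -0.037 (95% interval -0.15 to 0.078, adjusted p = 0.779) with Nup210 shRNA and -0.14 (95% interval -0.26 to -0.028, adjusted p = 0.111) with Mef2c shRNA.

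Vcl encodes vinculin, which reinforces the link of talin to actin under load, and read 11.46, 11.51 and 11.63 on Nup210 shRNA arrays, 11.54, 11.60 and 11.62 on Mef2c shRNA arrays, and 11.61, 11.69 and 11.75 on control arrays. Each shRNA group met the control range at its edge. Vcl fell by 0.15 on the log2 scale (SE 0.038, adjusted p = 0.0162) with Nup210 shRNA and was -0.099 (95% interval -0.18 to -0.019, adjusted p = 0.11) with Mef2c shRNA. With only the Nup210 shRNA and control arrays in the fit, the first call was lost (adjusted p = 0.0535). The talins differed in sign. Tln2, the talin enriched in striated muscle, read 8.44, 8.49 and 8.69 on Nup210 shRNA arrays, 8.46, 8.49 and 8.53 on Mef2c shRNA arrays, and 8.31, 8.38 and 8.50 on control arrays, with 3 groups that overlapped. Tln2 rose by 0.15 on the log2 scale (SE 0.046, adjusted p = 0.0457) with Nup210 shRNA and was 0.11 (95% interval 0.016 to 0.21, adjusted p = 0.138) with Mef2c shRNA. The rise was lost without any 1 of 15 arrays, all but Nup210 shRNA arrays 4 and 6 and control array 5. Tln1, the talin of most cells, was -0.09 (95% interval -0.17 to -0.0088, adjusted p = 0.19) with Nup210 shRNA and -0.067 (95% interval -0.15 to 0.014, adjusted p = 0.331) with Mef2c shRNA. The parvins, Parva and Parvb, which bind integrin-linked kinase, were called in no comparison, though the Mef2c shRNA and control arrays of Parva did not overlap.

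Of the adaptors, Fermt2, which encodes kindlin-2, an activator of integrins that is the main kindlin of muscle, read 9.22, 9.36 and 9.41 on Nup210 shRNA arrays, 9.24, 9.31 and 9.34 on Mef2c shRNA arrays, and 9.43, 9.47 and 9.50 on control arrays. All arrays of both shRNA groups were below all control arrays. Fermt2 fell by 0.16 on the log2 scale (SE 0.036, adjusted p = 0.00631) with Mef2c shRNA. Its difference of -0.12 (95% interval -0.20 to -0.042, adjusted p = 0.0525) with Nup210 shRNA missed the threshold, and was called without Nup210 shRNA array 1 or without Mef2c shRNA array 5 (adjusted p = 0.0443 and 0.0481). Itgb1bp2 encodes melusin, a muscle chaperone that binds the beta1 tail, and was -0.23 (95% interval -0.41 to -0.053, adjusted p = 0.115) with Nup210 shRNA and -0.27 (95% interval -0.45 to -0.091, adjusted p = 0.0506) with Mef2c shRNA. The first passed in 1 of 8 alternative limma fits (adjusted p 0.0102 to 0.158) and the second in 6 of 8 (adjusted p 0.00315 to 0.0616). The 19 members not called with Nup210 shRNA had differences of -0.23 to 0.15, with 95% intervals reaching from -0.41 to 0.49. The 23 not called with Mef2c shRNA had differences of -0.31 to 0.20, with intervals reaching from -0.65 to 0.41.

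**Figure D3:**
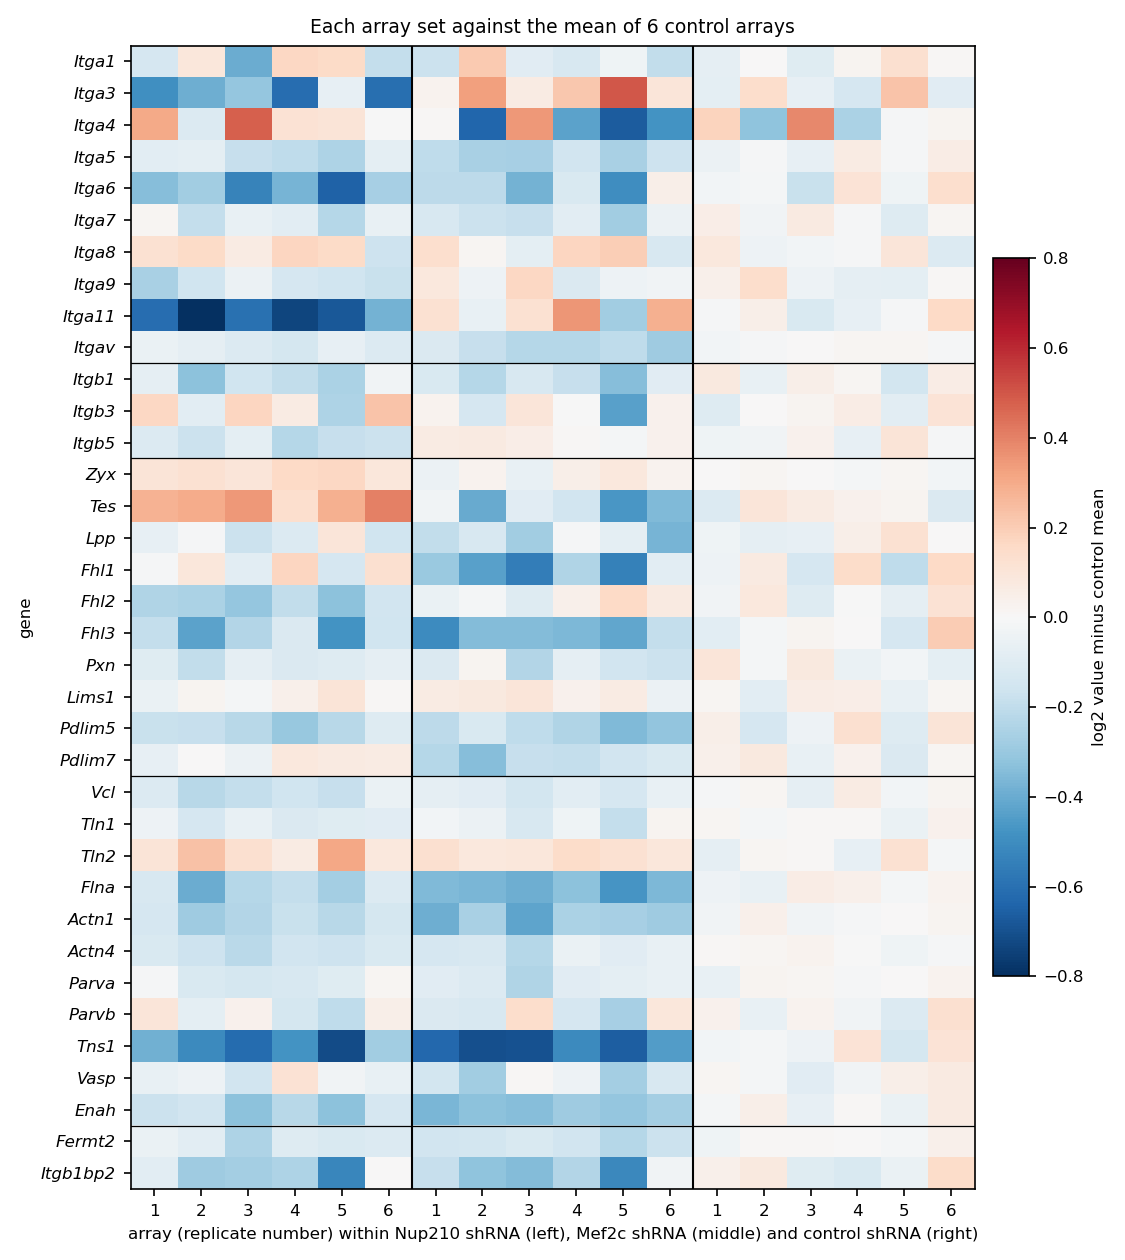
Log2 value of each measured member (rows, by role) on each of the 18 arrays minus the mean of the 6 control arrays, clipped at -0.8 and 0.8, with red higher and blue lower. Tns1 is blue on all 12 shRNA arrays, Itga11 on the 6 Nup210 shRNA arrays, and Tes is red on the 6 Nup210 shRNA arrays.

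Related genes could be compared within each array, as the log2 ratio of one to the other. The 18 pairs were chosen by homology from 12 families, with results of these data known, and the mean ratio was compared between groups by a two-sided exact permutation test (924 splits, smallest possible p 0.00216), adjusted over 54 tests. In all, 27 of 54 differed, 9 in each comparison. Of these, 3 (Itga8 to Itgav in both comparisons with control, and Itga5 to Itga8 with Mef2c shRNA) are ratios with Itga8, which was not above background, and 24 are of genes both above it. Ratios of other gene pairs were not computed, so the count has no background share beside it. A change in such a ratio shows that the members of a pair changed unequally, and not which of them changed.

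The FHL pairs differed in 7 of 9 tests. The ratio of Fhl1 to Fhl2 differed from control by 0.27 (SE 0.047, adjusted p = 0.0117) with Nup210 shRNA and by -0.38 (SE 0.088, adjusted p = 0.0117) with Mef2c shRNA, opposite in sign, and by 0.65 (SE 0.084, adjusted p = 0.0117) between the shRNA groups. In each of these 3 tests no array of either group overlapped the other group. The ratio of Fhl2 to Fhl3 was 0.022 (SE 0.059, adjusted p = 0.806) with Nup210 shRNA and 0.38 (SE 0.062, adjusted p = 0.0117) with Mef2c shRNA, and that of Fhl1 to Fhl3 was 0.30 (SE 0.07, adjusted p = 0.0117) with Nup210 shRNA and 0.0012 (SE 0.08, adjusted p = 0.989) with Mef2c shRNA. Neither Fhl2 to Fhl3 with Nup210 shRNA nor Fhl1 to Fhl3 with Mef2c shRNA passed the test.

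The alpha-actinin ratio, Actn1 to Actn4, was -0.041 (SE 0.024, adjusted p = 0.185) with Nup210 shRNA and -0.19 (SE 0.024, adjusted p = 0.0117) with Mef2c shRNA, without overlap in the second. It also differed between the shRNA groups, by 0.15 (SE 0.025, adjusted p = 0.0117). The talin ratio, Tln1 to Tln2, was lower in both comparisons, -0.24 (SE 0.06, adjusted p = 0.0195) with Nup210 shRNA and -0.18 (SE 0.052, adjusted p = 0.0246) with Mef2c shRNA. Zyx to Lpp was 0.19 (SE 0.046, adjusted p = 0.0206) with Nup210 shRNA and 0.19 (SE 0.056, adjusted p = 0.0206) with Mef2c shRNA. Vasp to Enah was 0.19 (SE 0.05, adjusted p = 0.0195) with Nup210 shRNA and 0.17 (SE 0.055, adjusted p = 0.0266) with Mef2c shRNA. The parvin ratio was called in no comparison.

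Among integrin chains, Itga1 to Itga11 was 0.58 (SE 0.14, adjusted p = 0.0117) with Nup210 shRNA and -0.16 (SE 0.14, adjusted p = 0.376) with Mef2c shRNA. For the laminin-binding chains, Itga6 to Itga7 was -0.30 (SE 0.083, adjusted p = 0.0246) with Nup210 shRNA and -0.08 (SE 0.075, adjusted p = 0.404) with Mef2c shRNA, and Itga3 to Itga6 was -0.0062 (SE 0.17, adjusted p = 0.989) with Nup210 shRNA and 0.43 (SE 0.16, adjusted p = 0.036) with Mef2c shRNA. Between the shRNA groups, Itga1 to Itga11 differed by 0.74 (SE 0.19, adjusted p = 0.0305), Itga3 to Itga7 by -0.66 (SE 0.15, adjusted p = 0.0206) and Itga4 to Itga9 by 0.62 (SE 0.15, adjusted p = 0.0206). In the same comparison Itgb3 to Itgb5 differed by 0.31 (SE 0.099, adjusted p = 0.0327) and Itga6 to Itga7 by -0.22 (SE 0.075, adjusted p = 0.0327).

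**Figure D4:**
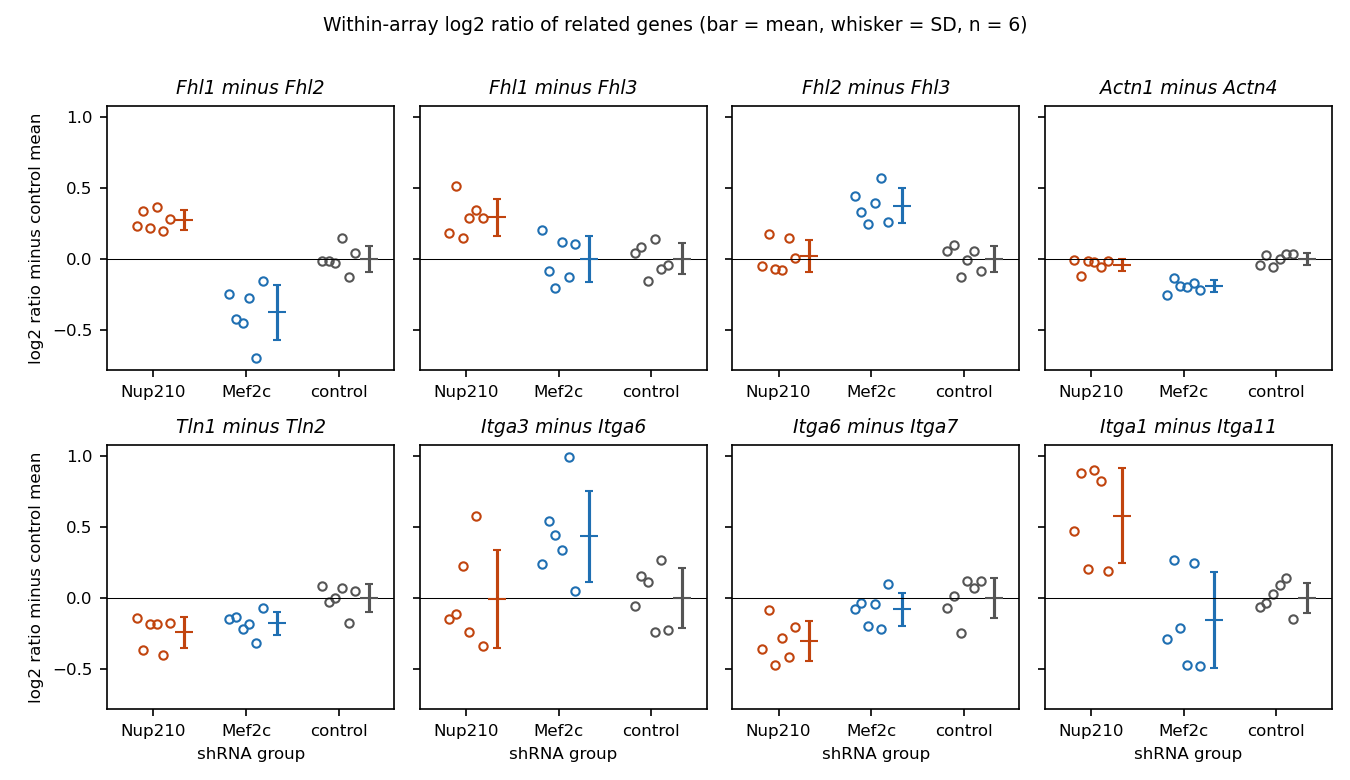
Within-array log2 ratio of 8 pairs of related genes (panels), minus its control mean, for Nup210 shRNA, Mef2c shRNA and control arrays, with mean and SD (n = 6) beside the points. Fhl1 to Fhl2 is above 0 on all Nup210 shRNA arrays and below 0 on all Mef2c shRNA arrays.

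Genes of the same pathway outside the list were counted from lists by role, and those named are, for each list and comparison with control, up to 2 called genes of largest absolute difference unless stated otherwise. Of 12 other integrin chains measured, 6 above the background guide, 1 fell with Nup210 shRNA and 1 with Mef2c shRNA. Each is 8.33% of the list, near the shares over all genes. Itgb8 (beta8) was -0.29 (SE 0.077, adjusted p = 0.0263) with Nup210 shRNA and 0.07 (SE 0.077, adjusted p = 0.658) with Mef2c shRNA. Itgb6 (beta6) was -0.043 (SE 0.074, adjusted p = 0.818) with Nup210 shRNA and -0.58 (SE 0.074, adjusted p = 4.16e-05) with Mef2c shRNA. Both are partners of alphav, and each was called between the shRNA groups, at -0.36 (SE 0.077, adjusted p = 0.00323) for Itgb8 and 0.53 (SE 0.074, adjusted p = 5.2e-05) for Itgb6.

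Of 17 other LIM proteins of adhesions and Z-discs, 5 fell (29.4%) and 0 rose with Nup210 shRNA. With Mef2c shRNA 7 fell (41.2%) and 3 rose (17.6%). In the fit of genes above the guide, 11% of genes fell and 7.16% rose with Nup210 shRNA. With Mef2c shRNA 14% of those genes fell and 9.54% rose. Fblim1 (migfilin, which joins filamin to kindlin) was -0.35 (SE 0.082, adjusted p = 0.0111) and Ldb3 (Cypher, of the Z-disc) was -0.34 (SE 0.062, adjusted p = 0.00157) with Nup210 shRNA. Pdlim1 was -0.45 (SE 0.11, adjusted p = 0.00828) and Csrp1 was -0.41 (SE 0.055, adjusted p = 7.15e-05) with Mef2c shRNA. The 3 that rose, given here after their values were seen, were Ablim1, Lmo7 and Pdlim3, by 0.20, 0.20 and 0.18. Ablim1 was among those that fell with Nup210 shRNA, -0.34 (SE 0.048, adjusted p = 0.000214).

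Of 28 other linkers and signalling proteins measured of 32, 4 fell (14.3%) and 1 rose (3.57%; Pak2, by 0.20) with Nup210 shRNA. The 14.3% was near the 11% of genes above the guide. With Mef2c shRNA 7 fell (25%) and 1 rose (3.57%; Git2, by 0.13). In that comparison 14% of genes above the guide fell and 9.54% rose. Pak2 and Git2 were named after their values were seen. Tns2 (tensin 2) was -0.38 (SE 0.041, adjusted p = 1.22e-05) and Sorbs3 (vinexin, a vinculin partner) was -0.37 (SE 0.047, adjusted p = 6.77e-05) with Nup210 shRNA. Tns2 was -0.10 (SE 0.041, adjusted p = 0.135) with Mef2c shRNA, a comparison in which Tns1 was called. Actn2, the alpha-actinin of the Z-disc, was -0.67 (SE 0.069, adjusted p = 4.18e-06), and Ptpn12, a phosphatase of adhesion proteins, was -0.35 (SE 0.038, adjusted p = 8.04e-06) with Mef2c shRNA.

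Of 20 matrix ligands measured of 22, 6 fell (30%) and 2 rose (10%) with Nup210 shRNA. With Mef2c shRNA 9 fell (45%) and 1 rose (5%). Of all genes 5.11% fell and 3.05% rose with Nup210 shRNA, and 6.42% and 4.34% with Mef2c shRNA. In the fit of genes above the guide these shares were 11% and 7.16%, and 14% and 9.54%. The 10% and 5% of ligands that rose were near or below the shares of genes above the guide. The laminin chains Lama2 and Lamb2, of the muscle basement membrane, were 0.35 (SE 0.068, adjusted p = 0.00275) and -0.28 (SE 0.043, adjusted p = 0.000319) with Nup210 shRNA. Ccn2 (CTGF, an integrin-binding matricellular protein) was -1.13 (SE 0.16, adjusted p = 0.000127) and Tnc (tenascin C) was -1.09 (SE 0.19, adjusted p = 0.000728) with Mef2c shRNA, larger differences than that of any member. Lama2 was 0.25 (SE 0.068, adjusted p = 0.0225) with Mef2c shRNA, the 1 ligand that rose there. Lamb1, named after its values were seen, was the second that rose with Nup210 shRNA, by 0.16, and it fell with Mef2c shRNA, -0.23 (SE 0.046, adjusted p = 0.003).

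Markers of the cell states a C2C12 culture can hold were read on the same arrays, and some lists held called genes and others did not. Of all genes 5.11% fell and 3.05% rose with Nup210 shRNA, and 6.42% and 4.34% with Mef2c shRNA. In bulk RNA, fewer cells of a type and less RNA per cell cannot be told apart. All 11 myotube markers were above the background guide, with summed log2 levels of 15.10 to 15.23 on Nup210 shRNA arrays, 15.07 to 15.23 on Mef2c shRNA arrays and 15.22 to 15.32 on control arrays, and 4 fell with Nup210 shRNA (Casq1, Ckm, Myh3 and Mymk) and 3 with Mef2c shRNA (Acta1, Casq1 and Myh3). The 8 markers of undifferentiated or reserve cells summed to 11.65 to 11.88, 11.70 to 11.81 and 11.62 to 11.80 on Nup210 shRNA, Mef2c shRNA and control arrays. Among them Myf5 rose in both comparisons, by 0.66 and 0.33, and Id3 rose with Nup210 shRNA by 0.60. Sdc4, a co-receptor of integrins, fell with Nup210 shRNA by 0.27 on the log2 scale (SE 0.035, adjusted p = 9.9e-05), and Hey1 fell with Mef2c shRNA by 0.30 on the log2 scale (SE 0.085, adjusted p = 0.0281).

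The 5 measured markers of dividing cells summed to 10.01 to 10.38 on Nup210 shRNA arrays, 9.33 to 9.75 on Mef2c shRNA arrays and 9.98 to 10.45 on control arrays, and 4 of 5 fell with Mef2c shRNA (Aurkb, Bub1, Cdk1 and Top2a) and 0 were called with Nup210 shRNA. Smooth muscle markers, 6 of 6 above the guide, summed to 13.50 to 13.59, 13.49 to 13.63 and 13.61 to 13.73 on Nup210 shRNA, Mef2c shRNA and control arrays, with Cnn1, Tagln and Smtn lower with Nup210 shRNA and Cnn1 and Tagln lower with Mef2c shRNA. Cnn1 and Tagln encode actin-binding proteins that myoblasts also express. Fibroblast markers, 4 of 6 above the guide (Lum and Tcf21 were not), summed to 10.78 to 10.91, 10.76 to 10.94 and 10.47 to 10.74 on Nup210 shRNA, Mef2c shRNA and control arrays, and Dcn rose in both comparisons. Of 6 endothelial or blood cell markers, Pecam1, Cdh5, Ptprc and Adgre1 were not above the guide and none was called, with sums of 7.82 to 8.03, 7.80 to 7.87 and 7.75 to 7.92 on the same groups in that order. The marker genes named here were chosen after their values were seen. The part of these marker differences in the integrin and adhesion results was not tested.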

How the data were processed

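Expression was measured on 18 one-colour arrays, 6 per shRNA group. The deposited values are log2 expression per probe set, which the authors made with RMA and Partek, per the submitters' processing notes, with version, settings and build not given in the sources used here. The platform annotation gave a single gene symbol to 23521 of 41345 probe sets, more than 1 to 1814 and none to 16010. Of those with a single symbol, 23328 were matched by Entrez identifier to the RefSeq gene table (GRCm38.p6), which changed 0 symbols. The brightest probe set of each of 22180 genes was used. A limma fit (version 3.58.1, in R 4.3.3) of all 18 arrays had a mean for each group, 3 contrasts, 15 residual degrees of freedom, and Benjamini-Hochberg adjustment over all genes; every adjusted p of a gene is from this fit unless another test is named. The fit was tested on simulated data. Alternatives were a replicate block, only the groups compared, median centring, renewed quantile normalization, dim genes left out, probe sets averaged, a trended robust prior, array weights, and each array left out.

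The members, lists, gene pairs and tests were chosen with earlier results of these data known. Every member called in at least 1 comparison is named with its values in each group; from the other lists, the 2 called genes of largest difference per comparison with control are named. Same-numbered arrays of different groups had deviations that correlated between -0.18 and 0.22, over 0.1 in 6 of 18 pairs. In 22 of 36 comparisons an array correlated best with its own number in another group. A random pick among the 6 arrays of a group would match 1 time in 6. The labels do not say that equal numbers share a culture or day, so the main fit did not pair samples. A replicate block, used as an alternative, added 11 calls of members and lost 2. Whether the samples are paired was not settled, and the main-fit p-values, also of members not called, take them as unpaired.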

Additional observations from a re-analysis of the deposited data

Results flagged for a closer look

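In 4 of 108 groups of 6 arrays (36 members in 3 groups), 1 array stood apart from the others by more of the group's range than Dixon's 95% critical value of 0.625 allows, and chance flags about 1 in 20 groups. Itga8, which is not above background, read 4.76 on Nup210 shRNA array 6, against 4.98 to 5.09 on the other arrays of that group. Array 6 was also the lowest for Itga8 in both other groups, at 4.79 with Mef2c shRNA and 4.81 in control. Pxn read 7.60 on Nup210 shRNA array 2, against 7.68 to 7.73. Parva read 9.43 on Mef2c shRNA array 3, against 9.56 to 9.61. Fermt2 read 9.22 on Nup210 shRNA array 3, against 9.35 to 9.41. Of these genes Fermt2 was called, with Mef2c shRNA and not with Nup210 shRNA.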

How the results depend on the processing

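Of 41 calls of members over the 3 comparisons, 30 were lost in no fit that left out a single array, 27 under none of the alternatives, leaving aside those added after seeing the data, and 0 turned their direction. With Nup210 shRNA against control, the members that rose (3) numbered 1 with only those groups in the fit, 1 with arrays centred on their medians, 0 without Nup210 shRNA arrays 2, 4 and 5, and 0 without control arrays 4 and 6, and the members that fell (14) numbered 4 and 9 in the last pair of fits, both added after seeing the data, where 1.85% and 3.26% of all genes fell, against 5.11% over all arrays. The lost calls kept their direction in both, at 68.3% to 118% and 71.6% to 93.3% of their differences over all arrays. Centring turned 3 higher and 14 lower calls into 1 and 13, where 1.78% of all genes rose and 5.31% fell. Over all arrays without centring 3.05% rose, and with only those groups in the fit 2.11% rose. Members higher with Nup210 shRNA than with Mef2c shRNA (6) numbered 3 with only those groups in the fit and 3 without Nup210 shRNA arrays 2, 4 and 5. In these fits 5.54% and 4.93% of all genes were higher, against 7.1% in the main fit. Leaving out each array in turn gave 1 to 3 that rose and 11 to 15 that fell with Nup210 shRNA, 0 to 0 and 11 to 16 with Mef2c shRNA, and 4 to 6 higher and 4 to 5 lower between them; Mef2c ran from -2.54 to -2.40 and, in its second probe set, from -1.94 to -1.80, and Nup210 from -0.14 to -0.082, with an exact p of 0.0498 without Nup210 shRNA array 6 (-0.13) and 0.0303 without control array 6 (-0.14). With the replicate number as a block, 3 rose and 16 fell with Nup210 shRNA, 1 (Itga3) and 18 with Mef2c shRNA, and 7 were higher and 5 lower between them. Under the block 3.66% of all genes rose and 6.36% fell with Nup210 shRNA, and 5.5% and 7.4% with Mef2c shRNA. Between the groups 7.85% were higher and 8.05% lower. The added calls were Itgb1 and Itgb1bp2 in both comparisons with control, Itga4, Itga6, Itga7 and Lpp lower with Mef2c shRNA, and Itga4 and Itga6 between the groups; calls of Tes with Mef2c shRNA and of Itga9 between the groups were lost, and in 22 of 36 comparisons an array correlated best with its own number in another group, a hint from the data and not from the design. The cause of these changes was not tested. The number of arrays and, for dim genes such as Itga8, Itga9 and Itga1, the closeness to background limit what could be detected.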

Other observations

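Among the partners of alphav, Itgb5 was -0.16 with Nup210 shRNA and 0.036 with Mef2c shRNA, Itgb6 was -0.043 and -0.58, and Itgb8 was -0.29 and 0.07. Itgb1, the common beta chain and also a partner of alphav, was -0.17 and -0.18. Itgb5 and Itgb8 were called in the first comparison and Itgb6 in the second, and Itgb1 and Itgb3, the last at 0.051 and -0.069, in neither. All of Itgb5, Itgb6 and Itgb8 were also called in the direct comparison of the shRNA groups, where Itgb3 was 0.12 (SE 0.09, adjusted p = 0.481) and Itgb1 0.01 (SE 0.058, adjusted p = 0.95).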
